A study of Onthophagus taurus and Onthophagus nigriventris with 71 samples.

Results

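The 120 probes described here are those whose deposited log ratios were lowest across every body outgrowth measured in a pair of horned beetle species. They were taken from an Onthophagus taurus microarray that carries 1920 probes of a series named OtL and 1920 of a series named OtP. For each probe the mean log ratio was taken over 12 O. taurus head arrays, 12 thorax arrays, 12 leg arrays and 19 Onthophagus nigriventris thorax arrays, and the 120 probes with the lowest maximum of these 4 means were kept. These 4 means chose the probes, so they are given below as a description and carry no test. Head, thorax and leg means of the members support nothing further. The brain arrays and the direct comparison of male heads were not used by the choice and were tested. Differences between sexes and male morphs were tested as well. In head, thorax, legs and O. nigriventris they come from the same arrays that chose the members, so the choice may bear on them. How far it does was not tested.

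In these dung beetles, large males of O. taurus grow a pair of head horns and fight, while small males stay nearly hornless and sneak matings. A thoracic outgrowth forms in the O. taurus pupa and is resorbed before adulthood, and large males of O. nigriventris carry a thoracic horn as adults. Horns, like legs, grow out of the epidermis, whereas the dorsal abdominal epidermis makes no outgrowth.

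Every sample was a pair of RNA pools from unmanipulated, laboratory-reared pupae taken within 24 hours after pupation, each pool holding tissue of 4 individuals. In O. taurus, dorsal head epidermis, dorsal prothoracic epidermis and legs were each compared with dorsal abdominal epidermis, and the central brain with its optic lobes was compared with the subesophageal and thoracic ganglia. Each of these 4 tissues was taken from females of a range of sizes, from large horned males and from small sneaker males, with 4 arrays per group. On 4 further arrays, called direct here, large male and small male dorsal head epidermis were hybridised together. O. nigriventris prothoracic epidermis was compared with its abdominal epidermis in 7 female, 5 large male and 7 small male arrays, all on the O. taurus array. The replicates are separate pairs of pools by their labels, and nothing used here says whether pools of one group came from separate broods, so the p-values measure the spread between these samples.

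The log base of the deposited values is not described and was taken as 2, so that a value of 1 is a 2-fold ratio. The focal tissue is most likely the numerator, so that a negative value means a lower signal in the outgrowth than in the abdomen. The dye was swapped within groups (37 arrays carried the focal tissue in Cy5, 34 in Cy3). Over all probes, the means of the opposite orientations correlated at 0.910 to 0.969 in the O. taurus tissues and 0.619 on the direct arrays. In O. nigriventris the correlation was only 0.265. The O. taurus ratios had thus been turned one way before deposit, and for O. nigriventris this is less clear. The direction itself is not stated in the sources used here. If it is the other way round in all sets of arrays, every sign below turns, and the differences between groups turn with it. Whether the brain ratios share the direction of the others was not tested, and their signs could turn alone. The probe identifiers matched 0 of the 16956 genes of the reference annotation, so the members are named by identifier only, with no role or sequence given, and the labelled tissues could not be checked against marker genes. In bulk tissue, fewer cells of a type and less RNA per cell cannot be told apart.

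The arrays differed in how closely replicates ran together, which bears on every value below. Within the O. taurus epidermis and leg groups, the correlation between replicate arrays over all probes was 0.734 to 0.949. It fell to 0.105 between one pair of small male brain arrays, ran from -0.04 to 0.634 within the O. nigriventris groups, and ran from 0.254 to 0.514 among the 4 direct arrays. Direct array 1 stood apart from the other three for the members, as described with that comparison.

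By the highest of the 4 means, the members were the low tail of the array. Their median was -2.30 in head, -1.78 in thorax and -2.41 in legs of O. taurus and -1.37 in O. nigriventris thorax, where the medians over all probes were 0.06, 0.05, 0.06 and 0.01. Of the 120 members, 116 were negative on all 36 O. taurus outgrowth arrays, 72 on all 19 O. nigriventris arrays and 70 on all 55. The member with the fewest negative arrays was still negative on 48 of the 55. Across the array, 917 probes were negative in all 4 means, so the members are the extreme of a larger class. At the edge of the choice, OtL008-H02 and OtP004-C06 were just inside with a highest mean of -0.894 and -0.882, and OtP016-B04 and OtP009-B10 were just outside with -0.881 and -0.878.

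The outgrowths were not equally low. Legs gave the lowest of the 3 O. taurus means in 60 members, head in 54 and thorax in 6. The O. nigriventris mean was the highest of the 4 in 96 members, so the other species set the limit for most of the list. On those arrays the species and its hybridisation to O. taurus probes cannot be told apart. In O. nigriventris the means of the 11 arrays with focal Cy5 and the 8 with focal Cy3 had the same sign in only 48.2% of all probes, while all 120 members were negative in both. The choice of members by the pooled mean favours that outcome, so it is a description.

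OtL015-C02 had the lowest maximum of all. Its head values ran from -5.19 to -2.62 with a median of -4.64, its thorax values from -4.78 to -3.63 with a median of -3.91, and its leg values from -6.26 to -3.66 with a median of -4.39 (12 arrays each). In O. nigriventris thorax it ran from -5.63 to -1.80 with a median of -3.89 over 19 arrays. Its highest outgrowth array in either species, at -1.80, was thus still far below 0, an extreme that the choice itself selected. Its brain values ran from -0.67 to 1.79 with a median of -0.13, but those ratios are against ganglia, not abdomen. The next 4 members by this measure were OtL004-F05, OtL011-A04, OtL013-C03 and OtL002-A12, with head means from -5.15 to -3.65 and O. nigriventris means from -3.54 to -3.23.

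Members differed in how evenly they were low. OtP001-H03 had the widest range, with means of -5.34 in head, -4.14 in thorax, -4.49 in legs and -2.31 in O. nigriventris. OtL006-C05 came next, from -4.19 in head to -1.21 in O. nigriventris. At the other end OtL014-B06 lay between -1.16 and -0.93 in all 4 means and OtL016-C04 between -1.58 and -1.34. All 3 O. taurus means were below -3 in 26 members, and all 4 means were below -2 in 29.

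In the brain arrays, whose ratios are against ganglia and not abdomen, more members were called positive than negative. Of the 120 members, 57 were higher in brain than in ganglia and 26 were lower, and 37 did not pass limma's test at an adjusted p of 0.05. The 83 members called are 69.2%, against 51.8% of all probes. The 57 positive calls are 47.5% of the members against 20.1% of all probes, and the 26 negative calls are 21.7% against 31.7%. A mean above 1, a 2-fold excess in brain, was seen in 28 members (23.3%) against 4.58% of all probes. Strings of 9, 4, 3, 2 and 2 members that ran closely together, as described below, lie wholly within the 28. These may therefore not be separate measurements. The members' median was 0.26 and that of all probes -0.06.

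OtP017-H03 was the highest. Its brain values were 1.49, 3.0, 3.39 and 2.51 in females, 2.03, 2.84, 0.98 and 1.68 in large males and 2.15, 3.17, 1.30 and 2.14 in small males. All 12 arrays were positive and the 3 groups overlapped, with a fitted mean of 2.22 ± 0.13 (SE; limma, adjusted p 3.25e-17). The brain SEs and p-values given here use a residual variance shared by head, thorax, legs and brain. They therefore do not measure the spread of the brain arrays alone. In the outgrowths OtP017-H03 was only moderately low, with head arrays between -2.13 and -0.85. On the direct arrays it was -0.25, 0.45, 0.18 and 0.08, on both sides of 0.

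The next highest members in brain behaved differently from OtP017-H03 outside the brain. OtL016-D12 had a brain mean of 1.91 ± 0.22 (SE), OtL006-C05 of 1.86 ± 0.21, OtP007-A09 of 1.81 ± 0.20 and OtP008-D10 of 1.75 ± 0.18, with limma's adjusted p at most 1.63e-09. The brain values of OtL016-D12 were 2.97, 1.56, 2.55 and 2.49 in females, -0.01, 3.59, 1.41 and 2.48 in large males and 2.33, 1.34, 1.65 and 0.53 in small males. Large male brain array 1 was the only one of the 12 that was not positive, and the 3 groups overlapped. Their head means ran from -4.39 in OtL016-D12 to -3.60 in OtP008-D10 and their thorax means from -1.97 to -1.42. The 4 probes belong to a string of 9 members linked through pairs with a root mean square difference under 0.3 over the 16 group means, with brain means from 1.22 to 1.91, a median head mean of -3.80 and direct means from -2.72 to -2.05. Whether such probes report the same gene is not known here.

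The members lower in brain were led by OtP014-A10 at -1.28 ± 0.25 (SE; limma, adjusted p 4.35e-05). Its brain values were -1.93, -0.93, -2.67 and -2.14 in females, -2.40, -1.92, -1.03 and 0.07 in large males and -0.08, 0.18, -1.95 and -0.58 in small males. The values spread widely within the male groups, and 10 of the 12 were negative. OtL010-B02 was tighter, at -0.97 ± 0.10 (SE), with every brain array between -1.19 and -0.66. OtL013-D04, OtL008-E01 and OtL020-G12 followed at -0.89 ± 0.10, -0.89 ± 0.11 and -0.82 ± 0.10 (SE; limma, adjusted p at most 1.01e-08).

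The brain call went along with the depth of the head ratio among the members. Those called positive in brain had a median head mean of -3.66, those not called -1.86 and those called negative -1.94. The thorax medians lay closer together, at -1.93, -1.70 and -1.76. Over the 120 members the correlation of the head mean with the brain mean was -0.510, against 0.130 over all probes. These are descriptions across probes that share arrays, and some may share a gene. The head mean was among the 4 values of the choice, which cut its range in the members. The correlation over the members and that over all probes are therefore not comparable.

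The large against small male heads gave the next result, and here most changed members were lower in large males. In the head arrays, each against abdomen, 24 members (20%) passed limma's test, against 7.4% of all probes. Of these, 22 (18.3%) were lower in large males, against 3.93% of all probes, and 2 (1.67%) were higher, against 3.46%. The members' median difference was -0.27, and that of all probes -0.03. A string of 4 members, linked as above by differences under 0.3, lies wholly among the 22, as do strings of 3 and 2. Some members of the string of 9 are among them too. The calls may therefore not be separate measurements.

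OtL017-E05 differed most. Its head values were -3.95, -4.21, -5.30 and -5.22 in large males and -3.18, -1.71, -2.85 and -2.24 in small males, while females had -4.30, -4.39, -4.55 and -4.41. Every large male array lay below every small male array, and the females lay within the range of the large males. The fitted difference, large minus small, was -2.18 ± 0.44 (SE; limma, adjusted p 0.000926). In the thorax its large minus small difference was 0.11 ± 0.44 (SE), and a moderated F test over head, thorax and legs gave an adjusted p of 0.0317 for a dependence of the difference on the tissue. That call was lost in 6 of 24 fits leaving out one array (adjusted p up to 0.126) and with scaled arrays (0.884). OtL017-E05 was the single member called by the F test, 0.833% of the members against 1.09% of all probes.

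OtL013-D02 followed OtL017-E05 closely over the 16 groups. Its head values were -3.99, -4.55, -4.74 and -5.01 in large males and -3.21, -1.82, -3.29 and -2.27 in small males, again without overlap, and the difference was -1.93 ± 0.43 (SE; limma, adjusted p 0.00305). OtL002-A12 had -3.60, -4.91, -5.25 and -5.32 in large males against -4.57, -2.20, -2.83 and -2.01 in small males. Small male array 1 overlapped with the large males, and the difference of -1.87 ± 0.55 (SE; limma, adjusted p 0.0273) passed 0.05 in only 2 of the 8 fits that each left out one of these arrays (adjusted p 0.00438 to 0.0964).

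The 2 members higher in large males were OtL015-H10 and OtL020-G12, both also called negative in brain. OtL015-H10 had -1.45, -1.34, -1.17 and -1.21 in large male heads and -2.33, -1.35, -2.84 and -3.14 in small male heads. Only small male array 2 reached the large males' range, and the difference was 1.12 ± 0.25 (SE; limma, adjusted p 0.00287). OtL020-G12 differed by 1.06 ± 0.25 (SE; limma, adjusted p 0.00404). Both are thus low against the abdomen in every morph and less so in the large, horn-bearing head.

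These head calls rest partly on a few arrays. Leaving out one array at a time gave 9 to 28 calls, with 10 without large male array 4, 9 without small male array 2 and 15 without small male array 4. With every array scaled to the same spread no member was called (78 of all probes were), although OtL017-E05 kept a difference of -1.93. Before scaling, the SD over all probes was 1.09 to 1.29 on the large male head arrays and 0.916 to 1.08 on those of small males. At the other end, the 120 probes with the highest minimum of the 4 means had 28 calls, all higher in large males. Within the dye orientations the 22 members called lower, chosen on these same arrays, had a median of -1.71 with focal Cy5 and -1.22 with focal Cy3. Of all 120 members, 66 were below 0 in both orientations.

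The direct arrays measured the same question without an abdominal reference, and whether they used the same pools as the head arrays is not stated. Here 41 members had a mean below -1, a 2-fold lower signal in large male heads. They are 34.2% of the members against 1.77% of all probes, and they make up 41 of the 68 such probes on the whole array. Only 5 members had a mean above 1 (4.17% against 2.58%). No member passed limma's adjusted p of 0.05 with 4 arrays, where 0.234% of all probes did. At an unadjusted p under 0.05 there were 57 members (47.5% against 18.1%), of which 52 were lower (43.3% against 8.98%).

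Direct array 1 did not share this pattern. Over the 41 members the median was 0.11 on direct array 1, and -3.08, -2.66 and -3.39 on direct arrays 2, 3 and 4. On those last 3 arrays all 41 were negative, and on array 1 only 15 were. Arrays 1 and 3 had the large male sample in Cy3 and arrays 2 and 4 in Cy5, so array 1 differed from an array of its own orientation. Without array 1 limma called 14 members, all lower in large males, and 15 of all probes, and 47 members had a mean below -1 (82 of all probes). Without array 2 it called 5 members and 137 of all probes, without array 3 it called 0 and 0, and without array 4 it called 2 and 10.

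OtL011-D06 had the lowest direct mean and was singled out after its values were seen. Its values were -0.56, -3.42, -3.96 and -3.71 on direct arrays 1 to 4, with a mean of -2.91 ± 0.57 (SE; limma, adjusted p 0.125). OtL017-E05 had -0.65, -3.36, -3.62 and -3.62, and OtL013-D02 -0.74, -3.25, -3.38 and -3.60. All 3 probes were negative on all 4 arrays, and least so on array 1. OtL002-A12 was 2.33 on array 1 and -3.87, -3.97 and -4.06 on the others, so its mean of -2.39 ± 1.02 (SE) describes none of them. The smallest p belonged to OtL017-D09, with -1.79 ± 0.28 (SE; limma, adjusted p 0.0971).

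The opposite direction was carried by a small group of similar probes, also picked out after their values were seen. OtL013-D04 had direct values of 0.99, 0.31, 1.45 and 2.77, OtL008-E01 of 0.33, 0.39, 1.44 and 2.80, OtL015-H10 of 0.64, 0.20, 1.26 and 2.70, and OtL020-G12 of 0.44, 0.21, 1.69 and 2.11. All 16 values were positive, and each probe was highest on array 4. The same 4 probes were called negative in brain, with means from -0.89 to -0.78, and their adjusted p on the direct arrays was 0.215 to 0.258 by limma. The fifth member above 1, OtL005-H06, had a direct mean of 1.03 and was called positive in brain, at 0.85.

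The brain and the direct head comparison, which share no array, ordered the members in opposite ways. Of the 41 members with a direct mean below -1, 40 had a positive brain mean, and 33 of these were called positive (59.7% of all probes had a mean below 0, and 20.1% were called positive and 31.7% negative). The correlation of brain and direct means over the 120 members was -0.710, and over all probes it was -0.09. The other 79 members had a direct median of -0.14 and a median brain mean of 0.01, with 24 called positive and 25 negative in brain. The 41 were chosen by their direct values, so no test was made on them. Strings of 9, 4, 3, 2 and 2 members, linked as above by differences under 0.3, lie wholly within the 41. The probes may therefore not be separate measurements, and the correlation over members describes fewer signals than 120.

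The head arrays against abdomen showed the same 41 members varying between small male pools. Their median was -4.05, -2.20, -3.74 and -2.30 on small male head arrays 1 to 4, against -3.74, -4.46, -4.33 and -5.01 in large males and -4.37, -4.32, -4.49 and -3.89 in females. Small male arrays 2 and 4, both with the head in Cy5, were the least negative of the 12, and array 1 lay within the range of the large males. The remaining 79 members were even, with medians between -2.09 and -1.40 on all 12 head arrays.

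Brain arrays varied over the same 41 members as well. Their median ranged from 0.42 to 2.38 in female, from 0.36 to 2.44 in large male and from -0.12 to 1.90 in small male brain arrays. For the other 79 members the 12 medians lay between -0.20 and 0.21. On these medians the 41 varied more between pools of the same group than the other 79 did, in both head and brain. The leg, thorax and O. nigriventris groups showed the same, other than small male legs and large male thorax. Head and brain ratios of the 41 were also larger in size, and the spread relative to size was not tested.

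In O. nigriventris thorax no member passed limma's test for large against small males, and none of all probes did (0%). At an unadjusted p under 0.05 there were 22 members (18.3%) against 6.93% of all probes, of which 19 were lower in large males (15.8% against 2.99%). The smallest p belonged to OtL006-H01. Its values were -2.63, -3.97, -3.21, -3.80 and -4.00 in large males and -2.37, -2.88, -2.17, -1.73, -3.22, -2.24 and -1.69 in small males. The groups overlapped by a few arrays, and the difference of -1.20 ± 0.40 (SE) had a limma adjusted p of 0.622.

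The 41 members low on the direct O. taurus arrays had a median large minus small difference of -0.82 in O. nigriventris, with 40 of 41 below 0 (50% of all probes) and 16 at an unadjusted p under 0.05. The other 79 had a median of 0.05. Over all 120 members the O. taurus direct mean and the O. nigriventris difference correlated at 0.735, and over all probes at 0.217. The arrays and animals were separate, but the O. nigriventris arrays also chose the members. The correlation over the members and that over all probes are therefore not comparable. The strings of closely alike members are included in these counts, so the probes may not be separate measurements. A test of whether the thoracic large minus small difference depended on the species called no member (0% of all probes). At an unadjusted p under 0.05 there were 5 members (4.17% against 2.55%), and the smallest p belonged to OtP019-H01 at -1.27 ± 0.46 (SE; limma, adjusted p 0.997).

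The other morph contrasts called no member. In O. taurus thorax none passed, where 0.026% of all probes did, but 23 had an unadjusted p under 0.05 (19.2% against 5.83%). Of these, 21 were higher, meaning less negative, in large males (17.5% against 2.66%). In 18 members (15% against 1.98%) every large male thorax array lay above every small male one. All 21 came from the 79 members that were not low on the direct arrays.

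OtL015-D01 had the smallest p in thorax. Its thorax values were -0.77, -0.95, -1.19 and -1.33 in large males and -2.08, -2.05, -1.71 and -1.48 in small males, without overlap, and the difference was 0.77 ± 0.18 (SE; limma, adjusted p 0.0726). In legs no member or other probe was called (0%) and 3 members had an unadjusted p under 0.05 (2.5% against 6.12%), led by OtP010-F04 at -0.67 ± 0.24 (SE; limma, adjusted p 0.766).

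In brain no member was called for large against small males (0.026% of all probes), and 14 had an unadjusted p under 0.05, all higher in large males (11.7% against 1.07%). OtL006-G05 led with 2.05 ± 0.44 (SE; limma, adjusted p 0.0553). Its brain values were 2.08, 3.54, 1.47 and 3.25 in large males, 1.95, 0.67, -0.39 and -0.10 in small males and 2.75, 0.47, 1.08 and 2.24 in females. Small male array 1 alone reached the range of the large males, and without it this member had an adjusted p of 0.00403 and 6 members (12 of all probes) were called. Over the 8 fits leaving out one large or small male brain array its adjusted p ran from 0.00403 to 0.468 and the calls from 0 to 6.

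Females and males, the latter taken as the mean of large and small males, differed at few members. In head 2 passed limma's test (1.67% against 2.55%), both less negative in females (0.99% of all probes in that direction). The members' median difference in head was -0.14, and that of all probes 0.02. At an unadjusted p under 0.05, 19 members were more negative in females (15.8% against 7.71%) and 13 less so (10.8% against 8.62%). OtL015-D01 had -0.64, -0.77, -1.09 and -0.78 in females against -1.78, -1.56, -1.95 and -1.88 in large and -1.39, -1.28, -1.97 and -1.60 in small males. All female arrays lay above all male arrays, and the difference of 0.86 ± 0.15 (SE; limma, adjusted p 0.000709) passed in each of 12 fits leaving out one array, but not with scaled arrays (adjusted p 0.0828). OtL018-F03 differed by 0.73 ± 0.19 (SE; limma, adjusted p 0.0297), lost in 5 of the 12 such fits.

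In thorax 1 member passed (0.833% against 2.11%), more negative in females (1.17% of all probes in that direction). OtP010-E12 had -3.80, -4.96, -4.00 and -3.62 in females against -2.49, -2.23, -2.60 and -1.75 in large and -2.54, -3.13, -2.28 and -2.87 in small males. The females lay below all males, by -1.61 ± 0.44 (SE; limma, adjusted p 0.0441), a call lost in 9 of 12 fits leaving out one array. In legs 2 members passed (1.67% against 0.208%), both more negative in females (0.182% of all probes in that direction).

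OtP019-B01 had leg values of -5.30, -5.49, -5.55 and -5.92 in females, -5.44, -4.82, -4.65 and -3.03 in large males and -4.57, -4.33, -2.97 and -4.52 in small males. Large male array 1 overlapped with the females, and the difference was -1.27 ± 0.29 (SE; limma, adjusted p 0.0417). OtP019-H01 differed by -1.17 ± 0.25 (SE; limma, adjusted p 0.0288), with every female leg array below every male one. These calls were lost in 7 and 6 of the 12 fits leaving out one array.

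No member was called for sex in brain or in O. nigriventris (0% of all probes in both). The smallest p was 0.0322, unadjusted, for OtL015-H06 in brain and 0.0214 for OtL002-A12 in O. nigriventris, both with a limma adjusted p of 0.9999. At an unadjusted p under 0.05 there were 3 members in brain (2.94% of all probes) and 5 in O. nigriventris (3.78% of all probes).

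Several members ran so closely together that they may not be independent measurements. OtL011-E08 and OtL013-G08 differed by a root mean square of 0.0756 over the 16 group means, OtL006-F11 and OtL018-F03 by 0.098, and OtL019-F09 and OtL009-D03 by 0.0998. The median over all 7140 pairs of members was 1.22. With links under 0.3, 68 members fell into 9 strings and 52 stood alone. The longest string held 37 mildly negative members, with head means from -2.27 to -0.94 and brain means from -0.50 to 0.62.

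The 120 members came from 38 of the 40 plates named in the identifiers, 74 from the OtL and 46 from the OtP series. Plate OtL013 held the most, with 11. Among the members, OtP014-D07 and OtP017-E05 had the largest dye effects in O. taurus, 0.93 ± 0.19 and 0.85 ± 0.20 (SE). Both were smaller in size than their O. taurus outgrowth means, which were -3.10 or lower. In O. nigriventris dye effects were larger, with a median size of 0.31 over the members, against 0.16 in O. taurus. Over all probes the medians were 0.42 and 0.09. The largest there among the members, picked out after its values were seen, was 2.37 for OtP018-B05. Its O. nigriventris mean was -0.009 with focal Cy5 and -2.39 with focal Cy3, so its place in the list rests on the Cy3 arrays.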

How the data were processed

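The 71 arrays are 2-colour hybridisations on a custom O. taurus array of 1920 OtL and 1920 OtP probes, with no missing value. The deposited log2 ratios are the authors' normalised values per probe and array. Per the submitters' processing notes limma was used, while background correction, normalisation and the log base are not described there or in the labels, and base 2 was taken because limma's log ratios use it. No scanner signal or coverage was used here, so whether a probe was above background is unknown, and the number of arrays limits the precision.

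The sign of values from opposite dye orientations had been aligned before deposit, by their correlations, least clearly in O. nigriventris. Values carried more than 6 significant digits in 99.1% to 99.7% of probes on arrays with focal Cy5 and in 0% on the others, so the orientations were handled separately upstream.

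Ratios were tested as deposited with limma 3.58.1 in R 4.3.3 (lmFit, eBayes, dye orientation as covariate), with Benjamini-Hochberg adjustment over all probes and a threshold of 0.05. The fits used 48 O. taurus arrays in 12 groups, the 19 O. nigriventris arrays, the 4 direct arrays, and 31 thorax arrays for the species test. In the fit of the 48 arrays, each probe had a residual variance shared by head, thorax, legs and brain. Its SEs and p-values thus do not measure the spread within the tissue tested alone. The F test is limma's moderated F. The code was tested on simulated data. Python 3.11.15 with pandas 2.3.3 was used for summaries.

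The members and every list were chosen with earlier results of these data known. Members named are the 5 with the lowest maximum, those at the edge of the choice and those of widest and narrowest range. Also named are the 5 highest and 5 lowest brain calls, and up to 3 calls each way or the smallest p per other contrast. The 3 closest pairs and the 2 largest O. taurus dye terms complete the list. Others are said to be picked out after their values were seen. Lists of cell type markers were not run, because no probe carries a gene name.

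Alternatives covered centring, scaling, no dye term, array weights, fewer arrays in the fit, replicate blocks and leaving out each array.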

Additional observations from a re-analysis of the deposited data

Results flagged for a closer look

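In 94 groups of values examined for a sample far from the others, 4 samples stood out, and chance gives about 1 in 20. OtL010-B02 was -0.71 in large male brain replicate 3, where the other 3 lay between -1.08 and -1.04. OtP019-B01 was -2.97 in small male legs replicate 3, against -4.57 to -4.33 in the others, and this array enters its female minus male difference in legs. OtL017-D09 was -2.95 on direct array 2, against -1.43 to -1.36 on the other 3. The median of the 120 members was 0.54 on large male brain replicate 2, against 0.04 to 0.12 on the other 3.

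The large minus small male difference of OtL017-E05 differed between head, thorax and legs by limma's moderated F test (adjusted p 0.0317), with -2.18 in head and 0.11 in thorax. The call was lost in 6 of 24 fits leaving out one array, with array weights (adjusted p 0.0777) and with scaled arrays (0.884).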

How the results depend on the processing

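Of the 120 members, 119 were kept with centred arrays, 113 with scaled arrays, 116 with both dye orientations weighted equally, 110 with medians in place of means and 116 to 120 when any one array was left out. The brain calls were 70 to 95 over the settings. Scaling every array to one spread left 0 calls for large against small male head, 0 for female against male head, thorax and legs and 0 for morph by tissue, and gave 5 for large against small male brain. Array weights gave 12 calls for large against small head, 3 for thorax, and 1, 2 and 4 for female against male head, thorax and legs. Fitting only the groups compared gave 1 call for female against male head, 0 for legs and 3 for morph by tissue, and 16 for large against small head. Without the dye term female against male thorax had 0 calls. The cause of these changes was not tested.

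Leaving out one array at a time gave 80 to 86 calls in brain, 0 to 1 for large against small thorax, 0 to 0 for legs and 0 to 6 for brain. For female against male it gave 1 to 6 in head, 0 to 1 in thorax, 0 to 2 in legs and 0 to 0 in brain. The range was 9 to 28 for large against small head, 0 to 14 on the direct arrays, 0 to 3 for morph by tissue and 0 to 0 for the species and O. nigriventris tests. The counts past 2-fold, whose alternatives were chosen after seeing the data, were 33 to 47 on the direct arrays and 24 to 29 in brain, and 47 and 40 with scaled arrays. Same-numbered arrays of 2 of 12 pairs of groups within a tissue all correlated above 0.1 after removing group means, and none of the morph pairs did. Between tissues of one sex or morph 4 of 18 pairs did, all among female or small male head, thorax and legs, and the numbers were not taken as pairs. With the replicate number as a fixed replicate block there were 70 brain calls, 24 for large against small head and 1 for large against small brain, and with a random replicate block 2 for morph by tissue, where OtL017-E05 had an adjusted p of 0.0216 (0.0265 with the fixed block).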

Other observations

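The 120 probes with the highest minimum of the same 4 outgrowth means, the counterpart list at the positive end, also differed in brain and between male heads. Of them, 72 were called positive and 10 negative in brain, and 28 were called between large and small male heads, all higher in large males. Their median direct mean was 0.40, against -0.41 for the 120 members. Members of both lists had brain medians above that of all probes, at 0.48 and 0.26 against -0.06.

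In O. nigriventris, 38 of the 41 members with a direct O. taurus mean below -1 had a positive female minus male difference. Its median was 0.50, and 48.8% of all probes were below 0. Male is here the mean of large and small males, so the large minus small difference given above enters this value. Over the 41, the median of the array medians was -1.47 in females, -1.70 in small males and -2.28 in large males. Of the 41, 2 had an unadjusted p under 0.05 in that direction, as did 2.19% of all probes. The list was chosen on the direct arrays, and no test was made on it.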
